A study of Homo sapiens with 16 samples.

Results

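Integrins are the receptors with which cells hold on to the matrix around them, and laminins are the matrix proteins on which epithelial cells rest. Each integrin pairs 1 alpha subunit with 1 beta subunit, and the pair sets which ligand is bound: ITGB1 is shared by most laminin and collagen receptors, ITGA6 with ITGB4 forms the hemidesmosome receptor, and ITGAV with ITGB3, ITGB5 or ITGB6 binds ligands that carry an RGD motif. Each laminin is a trimer of an alpha, a beta and a gamma chain, and trimers with LAMA3 anchor epithelia to their basement membrane. The genes were taken by symbol from the deposited gene table: 41 of its 63743 entries bear the name of an integrin alpha subunit, an integrin beta subunit or a laminin chain. They stand for 38 symbols, of which 18 are alpha subunits, 8 are beta subunits and 12 are laminin chains. The choice went by name alone, but it was made with earlier results of these data known.

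The study measured polyadenylated RNA in MiaPaCa2 and PANC1, established human lines from pancreatic carcinomas, each grown in DMEM with fetal bovine serum. Cultures of each line received gemcitabine at 40 nM, a nucleoside analogue used against this cancer, genistein at 50 µM, a soy isoflavone, both drugs at these doses (co-treatment), or neither (control). All treatments lasted 24 hours. Each of the 8 groups had 2 libraries, named replicates I and II, so 16 libraries were compared. Each drug was given at 1 dose. The study's methods call the replicates biological but do not say how they were separated, so the p-values below measure only the spread between these libraries.

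The libraries held 12943482 to 31991860 counts on genes. The replicates of a group differed by more than counting noise, with a chi-square per degree of freedom from 2.70 in genistein-treated PANC1 to 32.0 in untreated PANC1, so no library was a copy of another. Both lines carried the epithelial keratin KRT8 (369 to 668 FPKM in MiaPaCa2, 586 to 1076 in PANC1) together with the mesenchymal filament VIM, while EPCAM was at 0 in MiaPaCa2 and at 7.71 to 12.8 FPKM in PANC1. FPKM, the unit of the deposited level tables, scales fragments to transcript length and library size. Of the genes that mark other cells, the leukocyte genes PTPRC and CD3E and the fibroblast gene LUM never exceeded 1 count, and DCN, GP9 and PECAM1 had none. Others were detected: the monocyte gene CD14 reached 4.98 FPKM, the endothelial gene CDH5 1.72 FPKM and the platelet gene PF4 1.94 FPKM, all in MiaPaCa2, while the collagen gene COL1A1 stood at 33.7 to 99.7 FPKM in PANC1 and COL3A1 at up to 0.72 FPKM. Their part in the results was not tested. In bulk RNA, fewer cells that express a gene and less RNA per cell cannot be told apart.

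Of the 41 entries, 27 had a group mean above 1 FPKM in at least 1 group, and 12 symbols never did. The 27 were 11 entries of alpha subunits, 7 of beta subunits and 9 of laminin chains. The number above 1 FPKM was 14 in untreated MiaPaCa2, 16 with gemcitabine, 13 with genistein and 19 with co-treatment. In PANC1 it was 23, 23, 23 and 25 in the same order. The 7 beta entries include a second ITGB3 entry, which had no count in any library. It passed only in genistein-treated PANC1, at 1.33 FPKM, and is part of the number there. The 7 also include the entry of ITGB6, which passed in every PANC1 group and in co-treated MiaPaCa2, at 1.25 FPKM. Most of its FPKM lay on isoforms assigned to other genes, as given below. Those named ITGB6 stayed at or under 0.207 FPKM in every library. Enough reads for a test were left by a filter on low counts for 25 genes in MiaPaCa2 and 30 in PANC1, and for 31 when all libraries were fitted together. No count fell on 4 entries, which are ITGA4, the lymphocyte subunit, and second entries under the symbols ITGA10, ITGB3 and LAMA4. Among the genes without enough reads were the leukocyte subunits ITGAL, ITGAD and ITGAX, with at most 3, 3 and 9 counts in any library, and ITGA8, with at most 1.

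Levels between genes were compared as CPM, counts scaled to library size, per kilobase of the canonical transcript, given for replicates I and II. In untreated MiaPaCa2 the highest was ITGB1, the common beta subunit, at 141 and 140, followed by ITGA3, its laminin-binding partner, at 63.4 and 65.3. LAMC1, the gamma chain of most laminins, stood next at 41.9 and 41.0, and ITGB5, a vitronectin-binding beta subunit, at 19.5 and 19.4. In untreated PANC1 ITGA3 was at 180 and 145, ITGB1 at 139 and 195 and ITGB5 at 145.9 and 112.2. The ranges of these 3 overlapped, so their order in PANC1 could not be set, while ITGA5, the alpha subunit of the fibronectin receptor, was below them at 85.3 and 64.2 and LAMC1 below ITGA5 at 50.1 and 50.4. In MiaPaCa2 ITGA5 stood just under ITGB5, at 17.3 and 18.1.

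**Figure D1:**
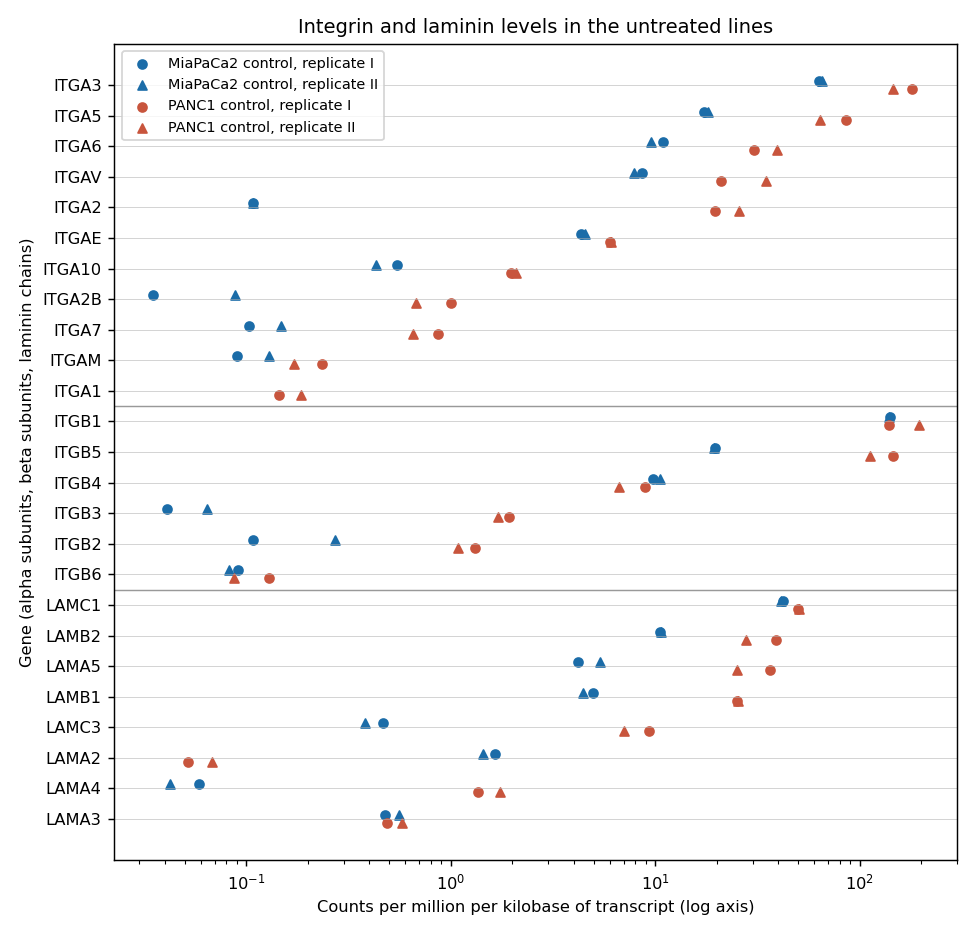
Level of each reported gene above 1 FPKM in at least 1 group, in CPM per kilobase of transcript on a log axis, in the 2 untreated libraries of MiaPaCa2 (blue) and of PANC1 (red). ITGB1, ITGA3, ITGB5, ITGA5 and LAMC1 lie farthest right, and the lines are far apart for ITGA2.

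The first comparison asked how the lines differed before any drug. With limma-voom over all 17863 tested genes, a gene was called at an adjusted p of at most 0.05, a log2 difference of at least 0.4 and a mean above 1 FPKM. On that rule 18 of 31 genes were higher in PANC1, against 27.9% of all genes, and 1 was lower, against 24.3%. Integrins gave 12 of the higher calls out of 21 tested and no lower call. Laminins gave 6 higher and 1 lower out of 10. The median log2 difference, PANC1 minus MiaPaCa2, was 1.84 over the 31 genes and 0.06 over all genes. With each line filtered alone, ITGA1, ITGA11, ITGA2B, ITGB6, ITGB7 and LAMA4 passed the low-count filter in PANC1 and not in MiaPaCa2. ITGA9 was the reverse. The FPKM limit could also be met in either line. The counts and the median thus include genes admitted only through the line where they were high, and the effect of this was not tested.

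Among the receptors, ITGA2, the alpha subunit of the collagen receptor with ITGB1, stood at 0.851 and 0.842 CPM in untreated MiaPaCa2 and at 153 and 201 CPM in untreated PANC1, a difference of 7.65 on the log2 scale (SE 0.47, adjusted p = 1.28e-08). ITGB3, the beta subunit of the vitronectin receptor on endothelium and of the platelet fibrinogen receptor, was at 0.243 and 0.383 CPM against 11.5 and 10.1 CPM (log2 difference 5.0, SE 0.31, adjusted p = 1.35e-08). Its platelet partner ITGA2B was at 0.122 and 0.306 CPM against 3.51 and 2.34 CPM, which is 3.65 on the log2 scale (SE 0.80, adjusted p = 0.00135). The libraries of the lines did not overlap for any of these. Of the platelet genes, GP9 had no count, GP1BA at most 3 and PF4 at most 13, with PF4 at 0.611 to 1.94 FPKM in MiaPaCa2 and up to 0.288 FPKM in PANC1. A median of 21.2% of the ITGA2B FPKM in PANC1 lay on isoforms at least 50% as long as the canonical one.

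The other receptor genes that were called differed less. ITGB5 was at 86.7 and 86.0 CPM in MiaPaCa2 and 648 and 498 CPM in PANC1, 6.53-fold higher (adjusted p = 1.22e-09). ITGA5 had a log2 difference of 2.05, ITGAV 1.74, ITGA6 1.77 and ITGA3 1.32, all higher in PANC1 with SE between 0.12 and 0.24. ITGB2, the beta subunit of leukocyte integrins, was called at 2.73 (SE 0.38, adjusted p = 2.85e-05) with 5 and 10 counts in MiaPaCa2 and 74 and 98 counts in PANC1. ITGA7 at 2.50, ITGA10 at 2.04 and ITGAE at 0.44 completed the 12. Of the 19 calls only that of ITGAE ended when 1 library was left out, untreated MiaPaCa2 replicate I (0.37, adjusted p = 0.12). The collagen receptor subunit ITGA1 had 0 counts in both untreated MiaPaCa2 libraries and 31 and 64 in PANC1, at least 8.63-fold higher against a floor of 3 counts per library, but its mean stayed below 1 FPKM. ITGA11 had 0 counts in both against 13 and 12 in PANC1, at least 2.49-fold higher on the same floor. ITGA9 was lower in PANC1, with 8 and 11 counts in MiaPaCa2 against 4 and 0 (log2 difference -3.68, adjusted p = 0.00204). Their means also stayed below 1 FPKM.

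ITGB1 and ITGB4, the beta subunits of the laminin receptors, were not called between the lines. ITGB1 was at 527 and 521 CPM against 521 and 728 CPM, with a log2 difference of 0.25 and an adjusted p of 0.183. ITGB4 was at 57.7 and 62.0 CPM against 52.5 and 39.1 CPM, a log2 difference of -0.42 with an adjusted p of 0.0731. After a trend on GC content was taken out of each library, ITGB4 was called lower in PANC1, at -1.02 (adjusted p = 8.28e-09), and ITGB1 higher, at 0.44 (adjusted p = 6.97e-05).

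Among the laminin chains, LAMA3 and LAMB3, an alpha and a beta chain of epithelial basement membranes, were not called between the untreated lines. LAMB3 was at 1.76 and 1.76 CPM against 2.65 and 2.22 CPM (log2 difference 0.43, 95% interval -0.10 to 0.95). LAMA3 was at 5.10 and 5.97 CPM against 5.21 and 6.13 CPM (0.05, 95% interval -0.31 to 0.41). LAMB3 rested on 16 to 71 counts in each library.

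The alpha chains separated the lines in opposite directions. LAMA2, the alpha chain of laminin in muscle and nerve sheaths, was the 1 gene called lower in PANC1. It was at 16.04 and 13.9 CPM in MiaPaCa2 against 0.501 and 0.656 CPM (log2 difference -4.64, SE 0.26, adjusted p = 6e-09). LAMA4, the alpha chain of vessel walls, was higher in PANC1 at 4.82 on the log2 scale (SE 0.34, adjusted p = 4.63e-08), from 0.425 and 0.306 CPM to 9.82 and 12.6 CPM. LAMA5, the alpha chain of most adult epithelial basement membranes, was 6.32-fold higher in PANC1 (adjusted p = 1.5e-05), at 416 and 286 CPM against 48.0 and 61.4 CPM. LAMC3 at 4.23, LAMB1 at 2.43 and LAMB2 at 1.62 on the log2 scale were also higher there.

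The next question was what each drug changed within a line. For the treatments each line was fitted with its own 8 libraries, and the same rule was used with the FPKM limit set in the treated group. Gemcitabine, genistein and co-treatment were each set against the same 2 control libraries, so the 3 comparisons of a line share them. In MiaPaCa2 gemcitabine raised 4 of 25 genes (ITGA7, LAMA3, LAMC3 and ITGB5), against 15% of all genes tested, and lowered 2 (ITGB1 and ITGA3), against 14.6%. Co-treatment raised 7 (ITGB3, ITGA7, LAMA3, LAMC3, LAMB1, ITGA6 and ITGB5), against 20.3%, and lowered 3 (ITGB1, LAMB2 and LAMA2), against 20.2%. As shares these were 16% higher and 8% lower with gemcitabine and 28% and 12% with co-treatment. Only the higher calls with co-treatment stood above the share of all genes by more than 1 gene. Among those 7, ITGB3, ITGA7 and LAMC3 had control means of 0.124, 0.697 and 0.82 FPKM and met the FPKM limit only in the treated group. ITGB8 fell by 2.11 with co-treatment (log2 change -2.11, adjusted p = 0.000557) but was not called, at a mean of 0.048 FPKM. How far the limit shaped the shares was not tested. With scaling by library size alone gemcitabine raised 6 and lowered none, with ITGB1 at -0.37 and ITGA3 at -0.30. The median log2 change with gemcitabine was 0.38 over the 25 genes and -0.01 over all genes, and with co-treatment 0.06 and -0.01.

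**Figure D2:**
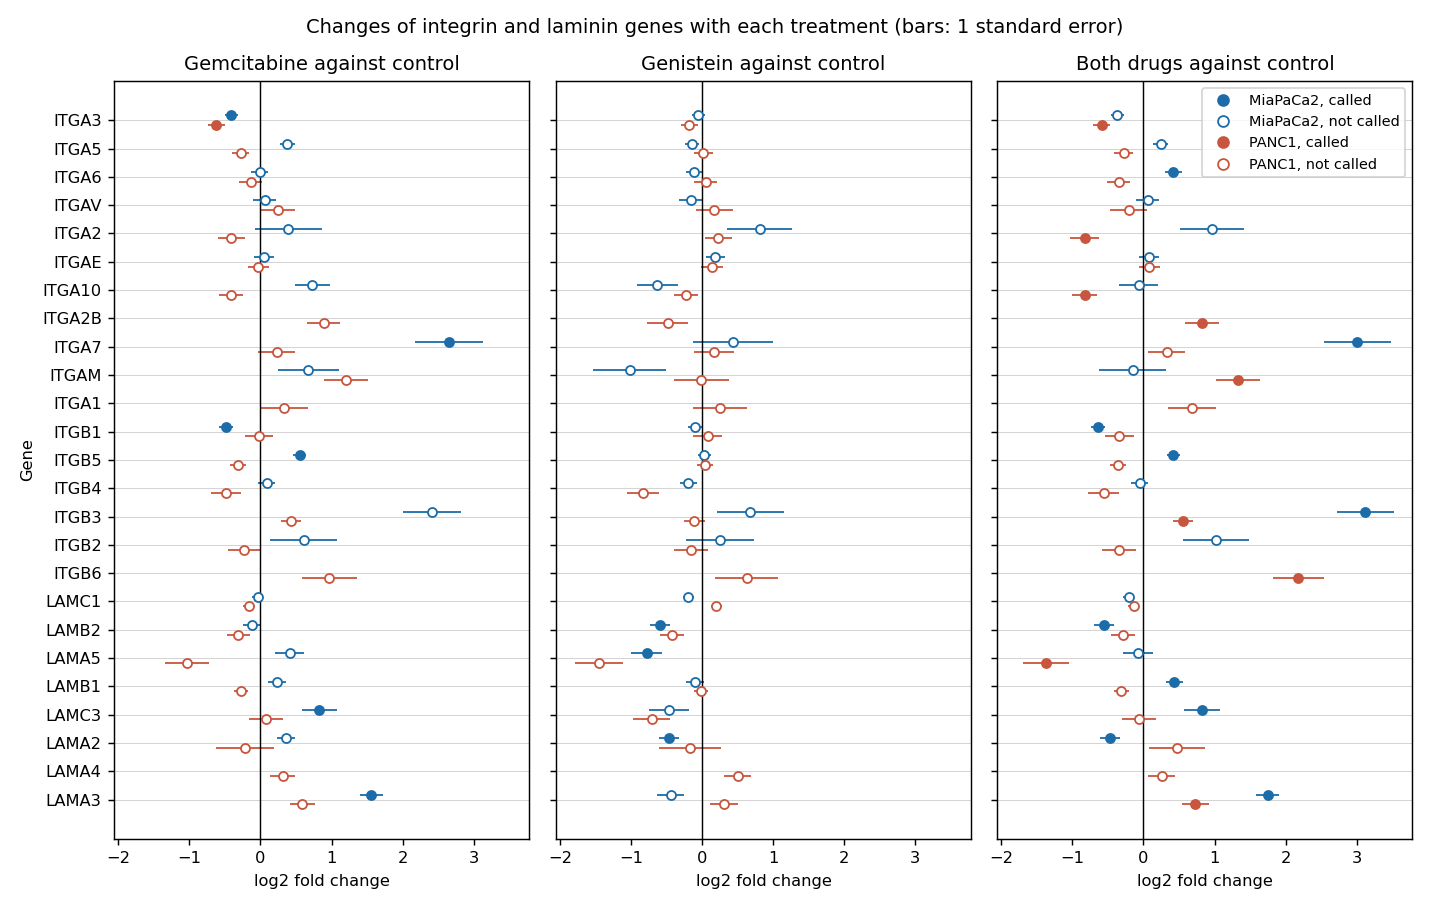
Fitted log2 fold change with 1 standard error for each reported gene, in 3 panels for gemcitabine, genistein and both drugs against control, in MiaPaCa2 (blue) and PANC1 (red). Filled points were called. The farthest to the right are ITGB3 (3.12) and ITGA7 (3.01) in MiaPaCa2 with both drugs.

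LAMA3 rose with gemcitabine in MiaPaCa2. Its control libraries were at 5.10 and 5.97 CPM, the gemcitabine libraries at 17.1 and 16.7 CPM, the genistein libraries at 4.35 and 3.92 CPM and the co-treated libraries at 19.8 and 18.9 CPM. All 4 libraries with gemcitabine lay above all 4 without it. The log2 change was 1.56 with gemcitabine (SE 0.16, adjusted p = 1.93e-05), which is 2.96-fold, and 1.75 with co-treatment (SE 0.16, adjusted p = 2.46e-06), which is 3.37-fold. With genistein alone it was -0.44 (adjusted p = 0.159).

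In PANC1 the same gene moved less. Its CPM values were 5.21 and 6.13 in the controls, 7.66 and 9.03 with gemcitabine, 6.41 and 7.37 with genistein and 9.79 and 8.87 with co-treatment. Co-treatment was called at 0.73 on the log2 scale (SE 0.19, adjusted p = 0.0298), a call kept in 1 of the 4 fits that left out a library, and gemcitabine was not, at 0.59 (95% interval 0.17 to 1.02, adjusted p = 0.0881). The response to gemcitabine was smaller in PANC1 by 1.07 on the log2 scale (difference -1.07, SE 0.22, adjusted p = 0.00711). The authors' FPKM, which share reads among isoforms, gave no such rise in PANC1: 2.54 and 1.55 in the controls and 2.57 and 1.64 with co-treatment.

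LAMA3 has a distal and an internal transcription start, on GRCh37 chromosome 18 within the gene at 21269417 to 21536186 on the plus strand. The full-length chain starts at the distal site and the short epithelial chain at the internal site. The distal isoforms, LAMA3-202 and LAMA3-203, summed to 0.242 and 0.389 FPKM in MiaPaCa2 controls, 0.942 and 1.10 with gemcitabine, 0.292 and 0.237 with genistein, and 1.06 and 1.02 with co-treatment. In PANC1 they were at 0.309 and 0.339 in the controls and 0.619 and 0.562 with co-treatment. The internal isoforms stood at 0.108 and 0.00213 FPKM in MiaPaCa2 controls and at 6.67e-05 and 6.03e-07 with gemcitabine. With genistein they were at 0.0776 and 0.0458 FPKM, and with co-treatment at 0.140 and 0.262. In PANC1 they were at 0.338 and 0.0908 FPKM with genistein and at or under 0.0156 in every other library. Most of the deposited LAMA3 FPKM lay on neither set: LAMA3-208, of 554 bases, led in MiaPaCa2 with a median share of 58.5%.

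The 200 bases before each start are shown because the long isoforms with FPKM above those of the controls in gemcitabine-treated MiaPaCa2 begin at the distal one. The distal window is chr18:21269217-21269416 on GRCh37, plus strand, read from that genome. The internal window is chr18:23872820-23873019 on GRCh38.p14, plus strand, from the RefSeq promoter table. It occurs once on GRCh37 chromosome 18, from 21452784, which is 183567 bases downstream of the distal window. Capitals mark the motif TGANTCA, the site of AP-1 factors, whose reverse complement has the same form so that 1 search covers both strands.
LAMA3 distal start: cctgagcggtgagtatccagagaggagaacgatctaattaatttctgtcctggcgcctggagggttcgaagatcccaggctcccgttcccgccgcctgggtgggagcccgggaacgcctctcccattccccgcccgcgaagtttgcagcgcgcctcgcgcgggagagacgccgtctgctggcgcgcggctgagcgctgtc
LAMA3 internal start: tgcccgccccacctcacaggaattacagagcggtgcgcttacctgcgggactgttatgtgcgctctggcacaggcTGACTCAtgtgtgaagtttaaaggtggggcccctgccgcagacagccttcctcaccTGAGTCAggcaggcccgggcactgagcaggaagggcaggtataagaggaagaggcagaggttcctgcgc
The internal window held the motif at -125 and -69 from the start. The distal window held none, and neither did the 250 bases before that start. Of 35116 RefSeq windows of 250 bases before a start, 6.57% held the motif and 0.4% held it at least 2 times. Of the integrin and laminin genes, 26 had an entry there, in 33 windows, and only LAMA3 and LAMB3 held the motif. A match describes letters and shows no binding.

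ITGB3 and ITGA7 were the receptor genes that changed most in MiaPaCa2. ITGB3 lies on GRCh37 chromosome 17 at 45331193 to 45391109, plus strand, and was at 0.243 and 0.383 CPM in the controls, 1.87 and 1.76 CPM with gemcitabine, 0.493 and 0.519 CPM with genistein, and 3.26 and 2.77 CPM with co-treatment. The controls held 4 and 5 counts and the co-treated libraries 46 and 42. Every library with gemcitabine was above every library without it. The log2 change with co-treatment was 3.12 (SE 0.40, 95% interval 2.25 to 3.99, adjusted p = 4.22e-05), or 8.70-fold, and with gemcitabine it was 2.41 (SE 0.41, adjusted p = 0.000736), where the mean of 0.898 FPKM kept it from being called. A second ITGB3 entry, a readthrough transcript that shares exons with ITGB3 had no count, and how reads in the shared exons were assigned is not given in the sources used here.

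ITGA7 encodes a laminin-binding alpha subunit known from muscle and lies on GRCh37 chromosome 12 at 56078352 to 56110188, minus strand. Its MiaPaCa2 values were 0.425 and 0.612 CPM in the controls, 3.56 and 3.39 CPM with gemcitabine, 1.48 and 0.425 CPM with genistein, and 3.90 and 5.07 CPM with co-treatment. The genistein libraries were far apart, while those with gemcitabine lay above all others. The change was 2.65 on the log2 scale with gemcitabine (SE 0.48, adjusted p = 0.00103) and 3.01 with co-treatment (SE 0.47, adjusted p = 2e-04). In PANC1 it ranged from 2.69 to 4.52 CPM with overlapping groups, and the response to gemcitabine was smaller there by 2.51 on the log2 scale (difference -2.51, SE 0.59, adjusted p = 0.0148). ITGA7 overlaps BLOC1S1 and METTL7B, and how the counting treated strand is not given in the sources used here.

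ITGB5 rose modestly in MiaPaCa2 with gemcitabine, from 86.7 and 86.0 CPM to 132 and 131 CPM (log2 change 0.55, SE 0.09, adjusted p = 0.000531). With co-treatment it was at 113.2 and 129 CPM (0.42, SE 0.09, adjusted p = 0.00179), and at 0.36 without co-treated replicate II. In PANC1 the values were 648 and 498 CPM in the controls and 455 and 423 CPM with gemcitabine, a log2 change of -0.32 that was not called (adjusted p = 0.12). The groups did not overlap in either line, and the responses differed by -0.97 on the log2 scale (SE 0.18, adjusted p = 0.00469).

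ITGB1 fell in MiaPaCa2, from 527 and 521 CPM to 387 and 394 CPM with gemcitabine (log2 change -0.48, SE 0.10, adjusted p = 0.00258) and to 391 and 315 CPM with co-treatment (-0.64, SE 0.10, adjusted p = 0.000198). ITGA6, the alpha subunit of the hemidesmosome receptor, was higher with co-treatment only, at 92.1 and 74.9 CPM against 63.4 and 55.4 CPM (0.42, SE 0.12, adjusted p = 0.011). That call ended without control replicate II (0.32, adjusted p = 0.116) or co-treated replicate I (0.25, adjusted p = 0.0702). ITGA3 fell with gemcitabine in both lines. Its CPM values in MiaPaCa2 were 310 and 319 in the controls and 254 and 238 with gemcitabine (-0.41, SE 0.09, adjusted p = 0.00322). In PANC1 they were 881 and 709 in the controls and 526 and 469 with gemcitabine (-0.62, SE 0.12, adjusted p = 0.021). The 2 responses were not distinguished (difference -0.31, 95% interval -0.70 to 0.08, adjusted p = 0.26). The MiaPaCa2 change was -0.39 without control replicate II and -0.36 without gemcitabine replicate II. The PANC1 call ended without control replicate I (-0.52, adjusted p = 0.0522), gemcitabine replicate I (-0.69, adjusted p = 0.103) or gemcitabine replicate II (-0.54, adjusted p = 0.196).

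**Figure D3:**
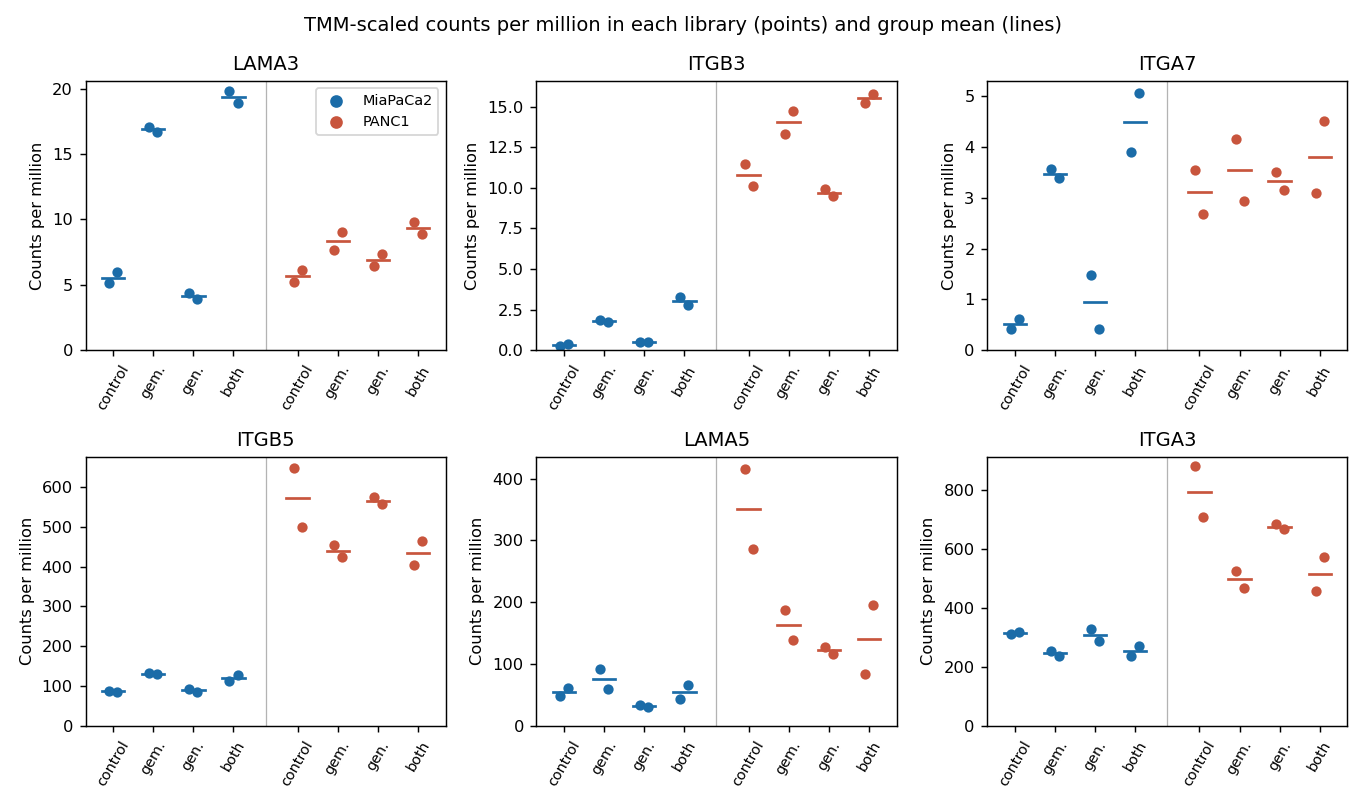
TMM-scaled CPM in each library (points) with the mean of the 2 libraries (lines) for 6 genes, by treatment, in MiaPaCa2 (blue) and PANC1 (red), each panel from 0. LAMA3 and ITGA7 rise with gemcitabine in MiaPaCa2, ITGB3 reaches at most 3.26 CPM there, and LAMA5 is highest in the untreated PANC1 libraries.

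Of the other laminin chains in MiaPaCa2, LAMC3 rose from 3.46 and 2.83 CPM to 7.13 and 4.78 CPM with gemcitabine (log2 change 0.83, SE 0.24, adjusted p = 0.0173) and to 6.17 and 5.53 CPM with co-treatment (0.82, adjusted p = 0.014). LAMB1, the beta chain of the most widespread laminins, was at 27.9 and 25.0 CPM in the controls and 39.7 and 35.03 CPM with co-treatment (0.43, SE 0.12, adjusted p = 0.0113). LAMB2, its counterpart in kidney and at the neuromuscular junction, fell from 59.9 and 60.6 CPM to 37.03 and 49.1 CPM (-0.55, SE 0.14, adjusted p = 0.00487). For all of these the treated and control libraries did not overlap. The gemcitabine call of LAMC3 was kept only when gemcitabine replicate II was the library left out, with 0.53 (adjusted p = 0.163) without gemcitabine replicate I, and its co-treatment call ended without control replicate II (0.68, adjusted p = 0.0943). That of LAMB1 ended without control replicate II (0.35, adjusted p = 0.106) or co-treated replicate I (0.32, adjusted p = 0.0531), and LAMB2 was at -0.37 without the latter.

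Genistein alone lowered 3 laminin chains in MiaPaCa2 and raised no gene of the 25, while 4.13% of all genes were lowered and 4.18% raised. LAMA5 went from 48.0 and 61.4 CPM to 34.3 and 29.8 CPM (log2 change -0.78, SE 0.22, adjusted p = 0.0398), LAMB2 to 41.1 and 39.9 CPM (-0.59, SE 0.14, adjusted p = 0.0187) and LAMA2 from 16.04 and 13.9 CPM to 11.1 and 10.95 CPM (-0.46, SE 0.14, adjusted p = 0.0481). In each case both treated libraries were below both controls. Leaving out any 1 of the 4 libraries ended all 3 calls, at an adjusted p from 0.0654 to 0.358. No integrin was called with genistein.

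Adding genistein to gemcitabine answers what the second drug changed. Against gemcitabine alone, co-treatment raised 1 of 25 genes in MiaPaCa2, ITGA6 (log2 change 0.43, SE 0.12, adjusted p = 0.046), against 4.05% of all genes. It lowered 1, LAMA2, against 1.83%. LAMA2 stood at 19.8 and 20.2 CPM with gemcitabine and at 10.99 and 11.5 CPM with co-treatment (-0.83, SE 0.13, adjusted p = 0.00363). Without either gemcitabine replicate neither call was kept, with LAMA2 at -0.84 (adjusted p = 0.0508) and -0.82 (adjusted p = 0.052), and ITGA6 was also lost without co-treated replicate I (0.27, adjusted p = 0.12). ITGB8, a beta subunit that pairs with ITGAV, had 1.87 and 1.82 CPM against 0.426 and 0.527 CPM (-1.89, SE 0.38, adjusted p = 0.0118) with means below 1 FPKM. The interaction of the drugs was called for none of the 25 genes by limma-voom or DESeq2, against 0.0249% of all genes. With unadjusted p under 0.05 there were 3, led by ITGA6 at 0.55 (95% interval 0.17 to 0.92), then ITGB8 at -1.50 and LAMA3 at 0.62.

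In PANC1 the same comparisons called fewer genes. Gemcitabine raised none of 30, against 4.49% of all genes, and lowered 1, ITGA3, against 3.03%. With the GC trend removed it raised 3 (ITGA2B at 1.04, LAMA3 at 0.61 and ITGB3 at 0.46) and lowered 3 (LAMA5 at -0.87, ITGA2 at -0.57 and ITGA3 at -0.49), and with scaling by library size alone it raised 2 and lowered 1. Genistein called none in either direction by limma-voom, against 0.0591% higher and 0% lower, and 2 by DESeq2. Co-treatment raised 5 (ITGB6, ITGAM, ITGA2B, LAMA3 and ITGB3), against 10.2%, and lowered 4 (LAMA5, ITGA10, ITGA2 and ITGA3), against 6.9%. The shares of the 30 genes were 16.7% and 13.3%, each above that of all genes by at most 2 genes, and the median log2 change was -0.14 against 0.01 over all genes. Unadjusted p values under 0.05 were held by 10 genes with gemcitabine, 7 with genistein and 12 with co-treatment. Without co-treated replicate I the number called with co-treatment was 2, without replicate II it was 6, and without a control it was 9 or 8. The call of the ITGB6 entry was kept in all 4 cases. That entry is counted among the 5 raised genes, but most of its FPKM lay on isoforms assigned to other genes, as given below.

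LAMA5 fell most among the laminins of PANC1. Its CPM values were 416 and 286 in the controls, 187 and 138 with gemcitabine, 128 and 116.1 with genistein and 84.6 and 196 with co-treatment. All treated libraries lay below both controls, and the controls and the co-treated libraries were each far apart. The log2 change was -1.37 with co-treatment (SE 0.32, adjusted p = 0.0237), -1.45 with genistein (SE 0.34, adjusted p = 0.119) and -1.04 with gemcitabine (SE 0.31, adjusted p = 0.0774). The exons of LAMA5 are 65.7% GC, and untreated replicate I and co-treated replicate II were the PANC1 libraries in which counts leaned most towards GC-rich genes, by 0.30 and 0.24 on the log2 scale per 10 points of GC. With that trend removed the change was called with genistein at -0.75 (adjusted p = 0.00943) and with gemcitabine at -0.87 (adjusted p = 0.000706). The co-treatment call ended without control replicate I (-1.18, adjusted p = 0.0511) or co-treated replicate I (-0.80, adjusted p = 0.0544).

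ITGA2 was at 153 and 201 CPM in untreated PANC1, at 120 and 140 CPM with gemcitabine, at 201 and 205 CPM with genistein and at 113.5 and 85.6 CPM with co-treatment (log2 change -0.83, SE 0.20, adjusted p = 0.0231). ITGA10, another collagen-binding alpha subunit, was at 10.1 and 10.8 CPM in the controls and 5.50 and 6.01 CPM with co-treatment (-0.83, SE 0.18, adjusted p = 0.0159). In both genes the co-treated libraries were the lowest of the 8. ITGB3 went the other way, from 11.5 and 10.1 CPM to 15.2 and 15.8 CPM (0.56, SE 0.14, adjusted p = 0.0292). ITGAM, the alpha subunit of a macrophage integrin, was called at 1.33 (SE 0.31, adjusted p = 0.0228) on 22 and 26 counts in the controls and 37 and 40 with co-treatment. ITGA2B was called at 0.82 (SE 0.24, adjusted p = 0.0466). Leaving out any 1 of the 4 libraries ended the call of ITGB3 (0.47 to 0.58, adjusted p from 0.0509 to 0.109), and ITGAM and ITGA2B were each kept in 1 of the 4 cases. ITGA10 was lost without co-treated replicate I (-0.78, adjusted p = 0.0704) and ITGA2 without co-treated replicate II (-0.61, adjusted p = 0.0928).

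The entry of ITGB6, the epithelial partner of ITGAV, held mainly isoforms that now carry another gene's name. It had 12 and 13 counts in untreated PANC1, 19 and 18 with gemcitabine, 8 and 11 with genistein and 27 and 49 with co-treatment, a log2 change of 2.18 (SE 0.36, adjusted p = 0.00613). In the isoform table the isoforms that a current annotation names ITGB6 stayed at or under 0.207 FPKM in every library. A median of 99.4% of the entry's FPKM in PANC1, and 97.7% in MiaPaCa2, lay on isoforms that the GENCODE annotation of GRCh37 assigns to other genes. In every library but MiaPaCa2 gemcitabine replicate I most of it fell on 2 isoforms of LINC02478, a long noncoding RNA. LINC02478 lies at chr2:161114229-161128391, which is 57405 bases upstream of the start of ITGB6, a gene on the minus strand. In MiaPaCa2 gemcitabine replicate I the LINC02478 isoforms were at 0 and other noncoding isoforms at 0.296 FPKM. In PANC1 the LINC02478 isoforms stood at 2.30 and 0.983 FPKM in the controls and 5.01 and 9.78 FPKM with co-treatment.

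Against gemcitabine alone, co-treatment called none of the 30 genes in PANC1 by limma-voom or DESeq2, against 0.0118% of all genes higher and 0.00591% lower. The entry of ITGB6 came nearest at 1.21 on the log2 scale (95% interval 0.44 to 1.98, adjusted p = 0.203). At an unadjusted p under 0.05 it was the 1 gene. The interaction was called for none of the 30 by either tool, against 0% of all genes, and 1 gene had an unadjusted p under 0.05, ITGA2 at -0.65 (95% interval -1.29 to -0.02).

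Whether the lines responded differently was tested in 1 model of all 16 libraries, on the adjusted p alone. The response to gemcitabine differed for 8 of 31 genes, which is 25.8%, against 15.3% of all genes. In all 8 the response was lower in PANC1, and they were 5 integrins (ITGB5, ITGA7, ITGA10, ITGA5 and ITGB3) and 3 laminins (LAMA3, LAMB1 and LAMA5). The share of all genes counts both directions together, so it gives no background for the direction. The median difference was -0.31 over the 31 genes and -0.08 over all genes. Every called gene of the 3 partner lists given below was also lower in PANC1. With the GC trend removed 12 differed, these 8 and 4 integrins: ITGA2 (-1.30), ITGAV (-0.51) and ITGA6 (-0.47) were lower in PANC1 and ITGA2B was higher (3.40, adjusted p = 0.0359), on 0 to 4 counts in the 4 control and gemcitabine libraries of MiaPaCa2. ITGB3 differed by -2.07 (SE 0.36, adjusted p = 0.00346). ITGA10 went from 2.80 and 2.22 CPM to 5.13 and 3.71 CPM in MiaPaCa2 and from 10.1 and 10.8 CPM to 8.25 and 6.995 CPM in PANC1, a difference of -1.25 (SE 0.28, adjusted p = 0.0124). The number of genes that differed was 2 without untreated MiaPaCa2 replicate I, 3 without its replicate II, 4 without gemcitabine-treated MiaPaCa2 replicate I and 3 without gemcitabine-treated PANC1 replicate II. ITGB5 was kept in each of the 8 cases. Responses to genistein differed for none of the 31 by limma-voom, against 0.0336% of all genes, and for 1 by DESeq2, and 3 had an unadjusted p under 0.05.

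The content of guanine and cytosine moved with some of these results. The trend of counts on GC content ran from -0.24 to 0.30 on the log2 scale per 10 points of GC among the MiaPaCa2 libraries, where both control libraries were at -0.24 and -0.15 and the co-treated ones at 0.05 and 0.30. With the trend removed, co-treatment in MiaPaCa2 no longer called ITGB1 (-0.36), ITGB5 (0.19), LAMA2 (-0.07) or LAMC3 (0.45). It newly called ITGAV at 0.74 and ITGA3 at -0.64, and ITGB4 at -0.48 and LAMA5 at -0.56. ITGB3, ITGA7, LAMA3, LAMB1, LAMB2 and ITGA6 stayed called. With gemcitabine the correction removed ITGB1 (-0.25) and LAMC3 (0.50) and added ITGAV (0.52) and LAMA2 (0.66).

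**Figure D4:**
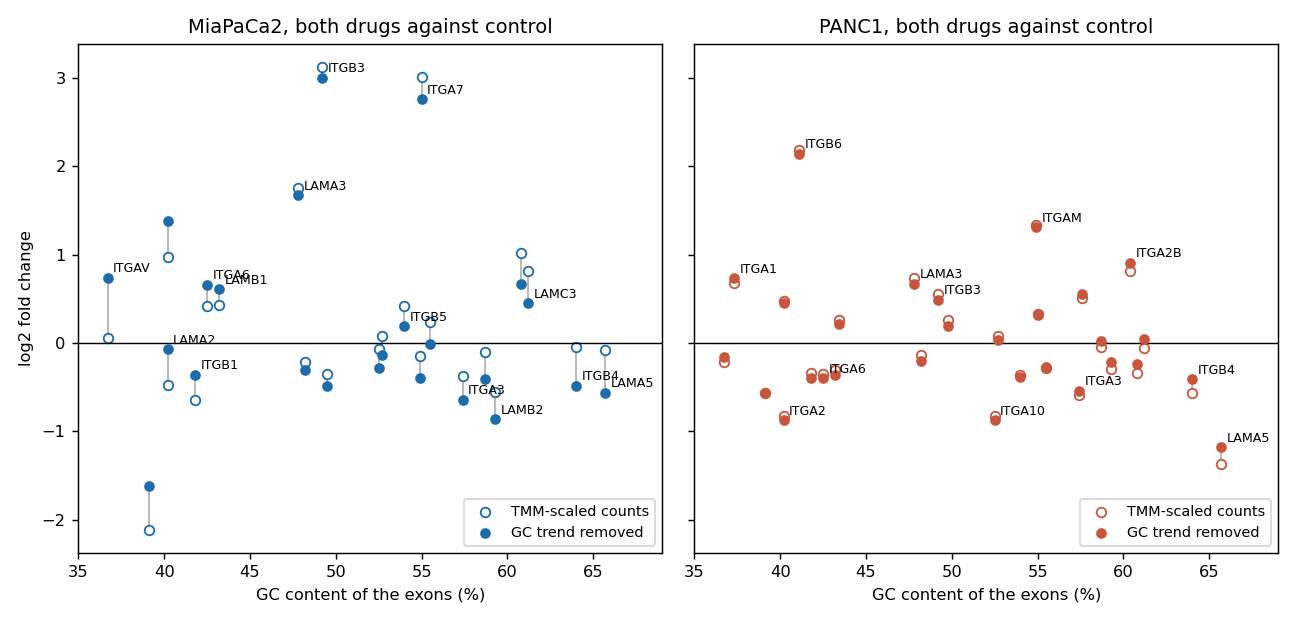
Log2 fold change with both drugs against the GC content of each gene's exons in percent, in MiaPaCa2 (left) and PANC1 (right), before (open) and after (filled) the GC trend of each library was removed, joined by a line. In MiaPaCa2 genes of low GC content such as ITGAV move up (0.06 to 0.74) and genes of high GC content such as LAMA5 move down, while the shifts in PANC1 are smaller.

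The deposited isoform FPKM bear on how the gene FPKM of these long genes should be read. For ITGAE, the subunit that binds E-cadherin, a median of 1.8% of the FPKM in MiaPaCa2 and 0.8% in PANC1 lay on isoforms of at least 50% of the canonical length. The isoform ITGAE-207, of 672 bases and without a defined coding sequence, carried 90.6% and 90.7%. The long isoforms carried 11.5% and 13.1% for ITGB5, 7.8% and 13.4% for LAMB2, 11.7% and 16.6% for LAMA5 and 26.7% and 26.8% for ITGA3. At the other end they carried 94.1% for ITGB3 in PANC1, 78.5% and 78.1% for ITGA6 and 76.7% for ITGA2 in PANC1. For the first of these genes the deposited FPKM thus sums mainly short isoforms.

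**Figure D5:**
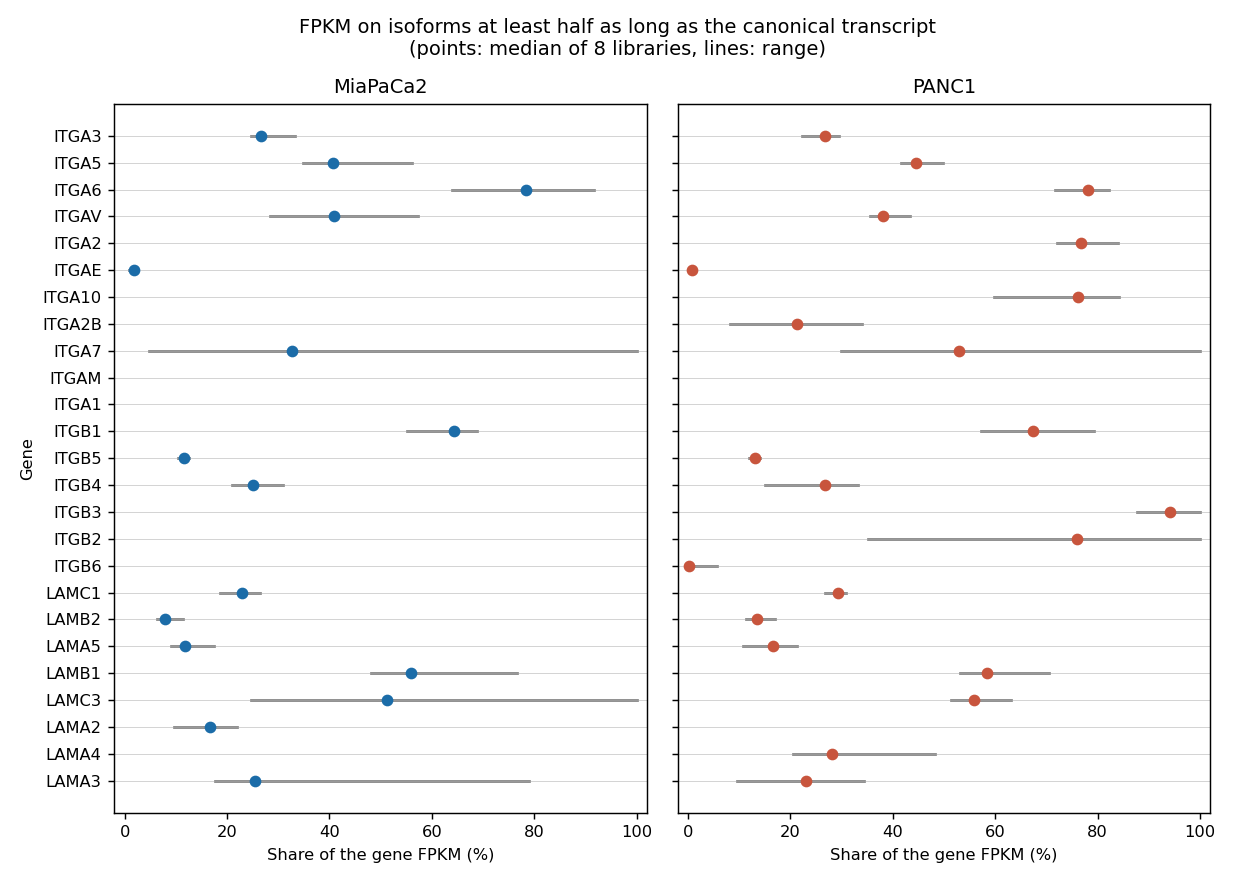
Share of each reported gene's FPKM, in percent, on isoforms at least 50% as long as the canonical transcript, as the median (points) and range (lines) of the 8 libraries of MiaPaCa2 (left) and PANC1 (right). Genes whose isoforms average under 1 FPKM in a line have no point. ITGAE lies near 0% and ITGB3 in PANC1 at 94.1%.

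Genes that work with these receptors were taken from 3 lists. Their counts are set beside the shares of all genes. Of 26 cytoplasmic adaptors and kinases, gemcitabine raised 3 and lowered 3 of 24 tested in MiaPaCa2 (15% and 14.6% of all genes), and lowered 2 and raised none of 23 in PANC1 (3.03% and 4.49%). Co-treatment raised 4 and lowered 5 in MiaPaCa2 (20.3% and 20.2%) and lowered 6 and raised none in PANC1 (6.9% and 10.2%). Genistein alone raised 1 in MiaPaCa2, TLN2 (4.18%), and called none in PANC1 (0.0591% higher and 0% lower). TNS3, a tensin that links beta subunits to actin, fell in both lines, by 1.40 with gemcitabine and 1.70 with co-treatment in MiaPaCa2 and by 1.47 and 2.09 in PANC1 on the log2 scale. Its relative TNS1 rose by 3.11 in MiaPaCa2 with gemcitabine (SE 0.37, adjusted p = 6.02e-05), at low levels, from a mean of 0.352 to 1.105 FPKM. The focal adhesion kinase PTK2 fell with gemcitabine by 0.79 in MiaPaCa2 (adjusted p = 0.000154) and by 0.47 in PANC1 (adjusted p = 0.0302). Between the untreated lines 10 of 24 adaptors were higher in PANC1 (27.9% of all genes), ACTN4 by 3.03, and 2 were lower (24.3%), FERMT1 at -4.39.

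Of 20 basement membrane partners and further laminin receptors, gemcitabine raised 7 and lowered 1 of 16 in MiaPaCa2 (15% and 14.6% of all genes) and called none of 16 in PANC1 (4.49% and 3.03%). The laminin receptor BCAM rose by 1.23 (SE 0.18, adjusted p = 0.000268), and DST, which ties hemidesmosomes to keratin, fell by 1.17 with gemcitabine, by 1.20 with genistein and by 2.39 with co-treatment. Genistein lowered 4 of the 16 (4.13%) and raised 1 (4.18%) in MiaPaCa2, with HSPG2, the heparan sulfate proteoglycan perlecan, at -0.80 (adjusted p = 0.00398), and called none in PANC1. Co-treatment raised 4 and lowered 3 in MiaPaCa2 (20.3% and 20.2%) and lowered 2 in PANC1 (6.9%), HSPG2 at -1.35 and PLEC at -1.24. Untreated, 8 of 17 were higher in PANC1 (27.9%), with COL7A1 at 4.46, and 6 lower (24.3%), with COL17A1, the hemidesmosome collagen, at -8.56.

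Of 22 other integrin ligands, gemcitabine raised 7 and lowered none of 9 tested in MiaPaCa2, against 15% and 14.6% of all genes. Fibronectin, FN1, rose by 2.83 (SE 0.33, adjusted p = 5.46e-05), at low levels, from a mean of 0.355 to 1.71 FPKM. CTGF rose by 1.54 and TGFB1, whose latent form is bound by ITGAV integrins, by 1.31. In PANC1 2 of 12 rose (4.49%), CTGF by 1.48 and CYR61 by 0.78, and 2 fell (3.03%), CDH1 (-1.57) and TNC (-0.57). Co-treatment raised 6 and lowered 1 in MiaPaCa2 (20.3% and 20.2%), and raised 2 and lowered 3 in PANC1 (10.2% and 6.9%). Genistein raised 3 and lowered 1 in MiaPaCa2 (4.18% and 4.13%) and called none in PANC1. Untreated, 11 of 14 ligands were higher in PANC1 (27.9%) and 1 lower (24.3%). The response to gemcitabine was lower in PANC1 for 4 of 14 ligands, with FN1 at -2.53 (SE 0.46, adjusted p = 0.00402), and for 3 of 24 adaptors and 4 of 17 basement membrane genes, against 15.3% of all genes in either direction.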

How the data were processed

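Poly(A)-selected RNA (Illumina TruSeq Stranded mRNA) of 16 libraries was measured. According to the submitters' processing notes the authors used TopHat2 2.0.4, SAMtools, Picard 1.29, HTSeq 0.6.1 and Cufflinks 2.1.1 with GRCh37. The authors deposited raw counts per gene, and FPKM per gene and per isoform, normalized for length and library size. Which annotation release was counted, and with which strand setting, is not given in the sources used here.

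Genes were selected by symbol in the FPKM table and joined to the counts by gene ID. The 41 entries and the 3 lists of partner genes were chosen with earlier results of these data known. Counts were filtered with filterByExpr, scaled by TMM and fitted with limma-voom (R 4.3.3, limma 3.58.1, edgeR 4.0.16). Every adjusted p in the text comes from limma-voom over all tested genes, with Benjamini-Hochberg adjustment. To be called, a gene needed an adjusted p no higher than 0.05, a log2 change of 0.4 or more in size and, in the treated group, a mean above 1 FPKM (in either line for the untreated comparison). Interactions and differences between responses were called on the adjusted p. Any of the 41 entries could be named, those called were given in full, and of each partner list at most 4 called genes per comparison were named. CPM was TMM-scaled, and the lengths, exon GC content and isoform names came from GENCODE on GRCh37. The precision is that of 2 libraries per group, with 12943482 to 31991860 counts each.

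Alternatives were edgeR's quasi-likelihood test, DESeq2 1.42.0, its size factors, library size alone, limma-trend on log2(FPKM + 1), no filter on low counts, the adjusted p alone, a GC correction (loess, span 0.3, degree 1, per library), a block for the replicate number, the last 2 together, and leaving out each library. The fits were tested on simulated counts. RefSeq gave the promoter table. Comparisons by set tests were not made. The values of 1 of the genes are not reported here.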

Additional observations from a re-analysis of the deposited data

Results flagged for a closer look

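The response to gemcitabine differed between the lines, by the test of the difference itself in limma-voom over 17863 genes, for 8 of the 31 genes tested. The values below are log2 responses of PANC1 minus those of MiaPaCa2. For the integrins they were -2.51 for ITGA7 (SE 0.59, adjusted p = 0.0148), -2.07 for ITGB3 (SE 0.36, adjusted p = 0.00346), -1.25 for ITGA10 (SE 0.28, adjusted p = 0.0124), -0.97 for ITGB5 (SE 0.18, adjusted p = 0.00469) and -0.76 for ITGA5 (SE 0.19, adjusted p = 0.0221). For the laminins they were -1.55 for LAMA5 (SE 0.49, adjusted p = 0.0473), -1.07 for LAMA3 (SE 0.22, adjusted p = 0.00711) and -0.60 for LAMB1 (SE 0.15, adjusted p = 0.0215). ITGB3 and ITGA7 rested on 4 to 8 counts in the untreated MiaPaCa2 libraries, where ITGB3 had 4 and 5 and ITGA7 had 7 and 8. On the authors' FPKM, fitted as log2(FPKM + 1), only ITGB5 was still called. The added 1 shrinks the log2 change of genes near or below 1 FPKM. ITGB3 in MiaPaCa2 was such a gene, at means of 0.124 FPKM in the controls and 0.898 FPKM with gemcitabine. The LAMA5 call was kept in 1 of 8 fits without 1 library, ended with the replicate block, with library size alone and with no filter on low counts, and its value was -0.89 after the GC correction.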

How the results depend on the processing

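No direction of a called gene turned under any alternative. Of 58 calls of named genes, edgeR kept 57, DESeq2's size factors 56, DESeq2 54, no filter on low counts 52, library size alone 51, the GC correction 50, the same with the replicate block 52, the replicate block 49 and FPKM 32. In 264 fits without 1 library, 189 kept the call. The cause was not tested, except that fits without a library or with a block have fewer degrees of freedom.

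The number called in MiaPaCa2 with gemcitabine (6) was 3 on FPKM and 10 on the adjusted p alone, and 5 to 8 without 1 library. With genistein in MiaPaCa2 (3) it was 1 by DESeq2, 0 on FPKM, 1 with the replicate block and 0 without any 1 of the 4 libraries. Co-treatment against gemcitabine in MiaPaCa2 (2) gave 0 on FPKM, 4 with the GC correction with or without the block, 1 each with library size alone, no filter and the replicate block, and 0 to 3 without 1 library. In PANC1 gemcitabine (1) gave 2 by DESeq2, 0 on FPKM, 6 with the GC correction with or without the block, 3 with library size alone, 0 with the block and 0 to 4 without 1 library. Genistein in PANC1 (0) gave 2 by DESeq2 and 1 with the GC correction with or without the block. Co-treatment in PANC1 (9) gave 3 on FPKM, 5 with the block and 2 to 9 without 1 library. The gemcitabine responses (8, all lower in PANC1) gave 1 on FPKM, 12 with the GC correction (11 lower and 1 higher) and 2 to 11 without 1 library, and the genistein responses (0) gave 1 by DESeq2. With library size alone the median log2 change of all genes went from 0.028 to 0.139 with gemcitabine and from 0.013 to 0.171 with co-treatment in PANC1, from -0.012 to 0.094 with gemcitabine in MiaPaCa2, and from -0.079 to 0.022 for the gemcitabine responses.

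The replicate numbers showed no regular pairing of the libraries. For each group the difference of replicate I minus replicate II was taken over all tested genes. Between groups these differences correlated from -0.262 to 0.131 in MiaPaCa2 and from -0.505 to 0.256 in PANC1. In each line 1 of 6 pairs of groups was over 0.1. With 2 libraries per group, small changes could not be told from the spread.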
